A study of Mus musculus with 12 samples.

Results

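The heat shock genes described here were 10 of the 54345 genes in the expression table, matched by gene symbol. They were chosen with earlier results of these data known, so their counts beside all genes are a description. The 10 genes were Hsf1, Hspa1a, Hspa1b, Hspa8, Hsp90aa1, Hsph1, Dnajb1, Hspb1, Hspd1 and Hspe1. They were followed over 12 poly(A) RNA libraries of H9c2(2-1) cells, with 3 libraries in each of 4 groups, collected after 6 h of treatment. The Unt cells were untreated, the DOX cells received doxorubicin, the D_DXZ cells received doxorubicin with DXZ, and the D_MgHCF cells received doxorubicin with MgHCF nanocatalysts. All cells were wild type by their labels, and no group received DXZ or MgHCF without doxorubicin. Doxorubicin is an anthracycline used against cancer that injures the heart, DXZ is the paper's abbreviation for the cardioprotective drug dexrazoxane, and MgHCF is a magnesium hexacyanoferrate particle. The doses given to the sequenced cells are not given in the sources used here. The cells are labelled as mouse myoblasts, whereas the paper describes the line as rat cardiomyoblasts, and the genes and coordinates in the table are those of mouse (GRCm38). How reads of rat cells would be assigned to mouse genes is not given in the sources used here, so levels set side by side between genes, their ratios and the reads on copies also carry any difference in how well the reads of each gene align. All 10 genes were listed in every library and all passed the filter for testing.

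Heat shock proteins are molecular chaperones that bind unfolded or damaged proteins and help them to refold, to reach their compartment or to be degraded. The transcription factor HSF1 is held inactive by chaperones in unstressed cells, and under heat, oxidants or other protein damage it binds heat shock elements in the promoters of chaperone genes, which are built from repeats of the bases GAA in alternating direction. In the cytosol HSP70 works with J-domain proteins, which deliver its clients, with nucleotide exchange factors and with HSP90, while small heat shock proteins hold unfolded proteins. In mitochondria HSP60 and HSP10 form the folding chamber for imported proteins.

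The promoter windows show how the members relate to the heat shock element, and 6 of them are given below, from 250 bases before to 50 bases after a start site, 5′ to 3′ on the strand of the gene. They were taken from RefSeq for GRCm38.p6, in which 7 of the 10 members had an entry, with 10 windows in all. Hspa1b (chr17:34959189-34959488, minus strand) and Hspa1a (chr17:34972107-34972406, minus strand) are shown for their near identity, Hspe1 (chr1:55087898-55088197, plus strand), Hsph1 (chr5:149636266-149636565, minus strand) and Hspb1 (chr5:135887669-135887968, plus strand) for their matches, and Dnajb1 (chr8:83607925-83608224, plus strand) for the lack of one. Capitals mark matches to GAANNTTC or TTCNNGAA, each of which reads the same on both strands, and overlapping matches were counted.
Hspa1b: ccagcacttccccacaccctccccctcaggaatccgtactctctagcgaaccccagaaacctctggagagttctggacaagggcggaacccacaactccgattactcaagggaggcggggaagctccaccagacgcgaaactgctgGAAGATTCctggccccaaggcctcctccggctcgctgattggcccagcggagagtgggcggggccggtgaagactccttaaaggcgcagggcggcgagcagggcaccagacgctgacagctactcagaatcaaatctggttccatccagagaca
Hspa1a: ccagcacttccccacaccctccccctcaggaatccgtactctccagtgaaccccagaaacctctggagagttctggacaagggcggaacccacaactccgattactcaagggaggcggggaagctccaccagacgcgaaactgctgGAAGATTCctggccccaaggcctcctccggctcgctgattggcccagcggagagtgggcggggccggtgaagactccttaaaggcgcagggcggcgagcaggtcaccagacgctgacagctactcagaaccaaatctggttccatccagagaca
Hspe1: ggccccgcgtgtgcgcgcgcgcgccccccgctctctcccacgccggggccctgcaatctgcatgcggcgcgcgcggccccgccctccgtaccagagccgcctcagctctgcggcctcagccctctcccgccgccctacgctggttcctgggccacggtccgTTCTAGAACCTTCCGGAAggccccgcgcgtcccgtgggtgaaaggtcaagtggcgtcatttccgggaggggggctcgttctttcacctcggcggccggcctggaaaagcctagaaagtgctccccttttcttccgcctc
Hsph1: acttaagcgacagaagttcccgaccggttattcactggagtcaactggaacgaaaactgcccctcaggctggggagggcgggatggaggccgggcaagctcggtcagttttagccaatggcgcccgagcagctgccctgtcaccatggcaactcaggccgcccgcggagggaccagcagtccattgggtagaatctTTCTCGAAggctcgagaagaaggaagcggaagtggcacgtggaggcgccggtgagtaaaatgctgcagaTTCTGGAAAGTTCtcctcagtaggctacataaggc
Hspb1: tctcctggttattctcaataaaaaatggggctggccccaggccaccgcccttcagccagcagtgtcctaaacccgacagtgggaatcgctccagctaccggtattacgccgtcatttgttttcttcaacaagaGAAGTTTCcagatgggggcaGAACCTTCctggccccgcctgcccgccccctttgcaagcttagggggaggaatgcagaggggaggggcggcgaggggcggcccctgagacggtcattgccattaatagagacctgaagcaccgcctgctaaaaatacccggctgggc
Dnajb1: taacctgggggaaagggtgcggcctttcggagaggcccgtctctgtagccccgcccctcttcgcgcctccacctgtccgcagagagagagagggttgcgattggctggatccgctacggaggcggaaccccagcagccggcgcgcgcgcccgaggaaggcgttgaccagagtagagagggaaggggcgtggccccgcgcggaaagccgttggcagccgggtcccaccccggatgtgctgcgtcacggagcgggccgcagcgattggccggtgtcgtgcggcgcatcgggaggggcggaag

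Of the 7 members with a window, 6 had a match to at least one of these patterns in at least 1 of their windows. Of all 32851 single windows of the same length, 15.1% did. The members were chosen as HSF1 and its chaperone targets, so the shares in this paragraph are a description and not a test. Both windows of Dnajb1 were without a match. GAANNTTC stood in 7.86% of all windows and TTCNNGAA in 8.52%. A run of 3 alternating units, spaced by the same 2 bases, was present in windows of Hspd1, Hspe1 and Hsph1, compared with 0.603% of all windows. Hspd1 and Hspe1 are read away from each other, and their run is the same stretch of DNA, from -144 to -127 bases relative to a start site of Hspd1 and from -89 to -72 relative to that of Hspe1. The window at the other start site of Hspd1 had no match. In Hspb1 the matches lay at -117 to -110 and at -97 to -90. In Hspa1a and Hspa1b a single match lay at the same place, -104 to -97, and the windows of these genes were 98.7% identical over 300 bases. Their 4 differences, with the base of Hspa1a first and counted from the 5′ end of the window, were C44T, T47C, T249G and C276T, none of them in the match. These matches describe the mouse reference sequence. They are not evidence that HSF1 was bound.

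The reads assigned to genes, recovered as whole numbers from the deposited FPKM for 100% of the values within 0.02 reads, ranged from 16626514 to 19365119 per library. FPKM count fragments per kilobase of gene length after a library scaling, and here that scaling set libraries to equal median ratios. It therefore differed from scaling by the total, and the quotient lay between 1.32 and 1.38 in Unt, between 1.26 and 1.43 in D_MgHCF, between 0.647 and 0.784 in DOX and between 0.747 and 0.892 in D_DXZ. Equal FPKM sums in place of this scaling moved the median of the 12434 genes that reached an FPKM of 1 in 3 or more libraries from 0.02 to -1.01 on the log2 scale for DOX against Unt, and from -0.02 to 0.87 for D_MgHCF against DOX. Values under other scalings are therefore given beside the main changes below. Genes with a high level moved together: of 625 genes with a mean FPKM of at least 100, 97.3% were higher in DOX than in Unt, with a median log2 fold change of 1.80, and the median for D_MgHCF against DOX was -1.65. Hspa8, Hspd1, Hsp90aa1 and Hspe1 belong to these genes. The mean, here and below, is that of all 12 libraries. Genes that are high in DOX and D_DXZ therefore enter this set more readily, and its values are a description. The D_MgHCF libraries correlated less well with each other (Pearson's r of log2(FPKM + 1), 0.942 to 0.984) than those of the other groups (at least 0.9895), and D_MgHCF replicate 3 stood apart. The myogenic factors Myod1, Myf5, Myf6, Myog and Pax7, which define myoblasts, did not exceed 0.126 FPKM in any library. The summed FPKM of 9 myoblast markers, almost all of it Vim, lay between 221.5 and 269.7 in Unt, between 870.8 and 1137 in DOX, between 693.9 and 879 in D_DXZ and between 95.9 and 158.6 in D_MgHCF. Des went the other way in DOX, between 1.36 and 1.57 in Unt and between 0.491 and 0.668 in DOX. The sum of 4 fibroblast markers lay between 45.1 and 51.1 in Unt, between 97.3 and 121.9 in DOX, between 76.6 and 103.2 in D_DXZ and between 22.0 and 39.6 in D_MgHCF. Within it Col1a1 lay between 19.3 and 21.0 in Unt and between 18.8 and 32.3 in D_MgHCF. Col1a2 lay between 25.1 and 29.5 in Unt and between 2.73 and 6.70 in D_MgHCF. Pdgfra went against the fibroblast sum in DOX, between 0.592 and 0.829 in Unt and between 0.264 and 0.405 in DOX. The sum of 6 cardiac markers, most of it Gata4, ran the other way. It lay between 9.79 and 11.02 in Unt and between 3.14 and 5.82 in DOX. In D_DXZ it lay between 3.04 and 4.14 and in D_MgHCF between 14.8 and 26.4. Nkx2-5, Actn2, Myh6 and Ryr2 did not exceed 0.3206 FPKM in any library. Tnnt2 did not follow the sum, at no more than 0.1901 in Unt and no less than 0.8546 in DOX. In D_MgHCF Tnnt2 lay between 0.35 and 0.5361. The sum of 3 macrophage markers, almost all of it Cd68, lay between 0.888 and 1.11 in Unt, between 2.75 and 3.52 in DOX, between 3.79 and 4.29 in D_DXZ and between 1.98 and 4.79 in D_MgHCF. The 3 endothelial markers summed to at most 0.200 in Unt, DOX and D_DXZ and to between 0.237 and 0.989 in D_MgHCF. The part of these markers in the changes below was not tested, and in bulk RNA more RNA per cell and more cells that express a gene cannot be told apart.

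The untreated cells held Hspa8, Hspd1, Hsp90aa1 and Hspe1 at the highest levels of the 10 genes. In Unt the mean FPKM was 241.4 ± 12.6 (SD, n = 3) for Hspa8, 204.7 ± 7.12 for Hspd1, 114.0 ± 19.1 for Hsp90aa1 and 98.5 ± 2.73 for Hspe1. The libraries of Hsp90aa1 and Hspe1 overlapped, and every other pair of neighbours in the order was apart. Dnajb1 (17.8 ± 1.21), Hsph1 (10.8 ± 0.174), Hsf1 (7.70 ± 0.418), Hspb1 (5.44 ± 0.558), Hspa1b (3.09 ± 0.286) and Hspa1a (0.244 ± 0.0404) followed, all over 3 libraries. In DOX the order of FPKM was Hspd1, Hspa8, Hsp90aa1, Hspe1, Hspb1, Hsph1, Hspa1b, Hsf1, Dnajb1 and Hspa1a, where the first 3 overlapped. Dnajb1 moved from the fifth place in Unt to the ninth in DOX and was the seventh in D_MgHCF. In D_MgHCF Hsp90aa1 and Hspd1 had the highest FPKM and overlapped, Hspa8 and Hspe1 came next and overlapped, and Hspb1, Hspa1b and Dnajb1 overlapped behind them. The reads of all 10 genes together made up between 0.309% and 0.328% of the reads on genes in Unt, between 0.532% and 0.574% in DOX, between 0.529% and 0.586% in D_DXZ and between 0.189% and 0.239% in D_MgHCF.

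**Figure D1:**
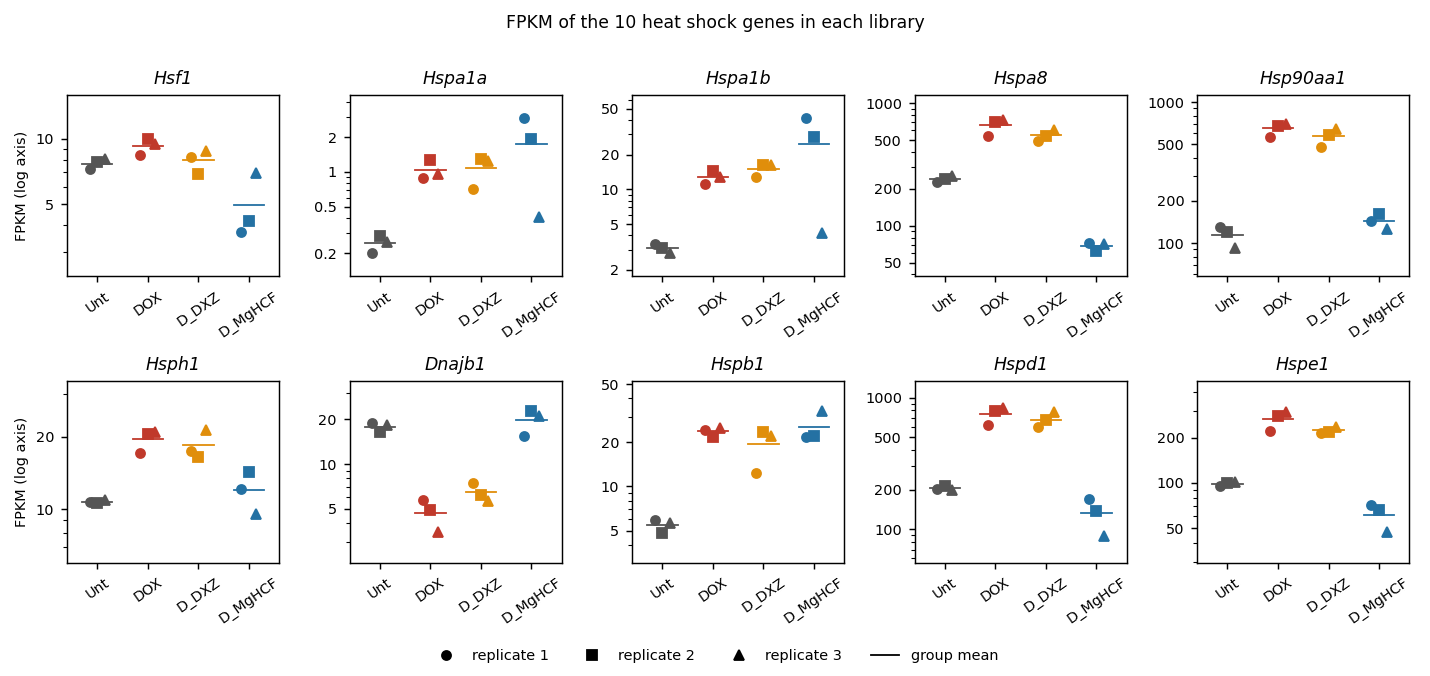
FPKM (log axis) of each of the 10 heat shock genes in the 12 libraries, with 1 panel per gene, 1 marker per library shaped by replicate number, and a line at each group mean. Hspa8 fell from 542 or more in the DOX libraries to at most 72.0 in D_MgHCF, Dnajb1 ran the opposite way, and Hspa1a and Hspa1b in D_MgHCF replicate 3 lay far below the other D_MgHCF libraries.

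Doxorubicin was compared with no treatment to see how it alters the cells. Of the 10 genes, 7 were higher in DOX than in Unt (limma, adjusted p under 0.05), against 18.6% of the 25044 genes tested, and 1, Dnajb1, was lower, against 19.9%. The median log2 fold change was 1.43 over the 10 genes and 0 over all genes tested. With equal FPKM sums, which shift the median gene as given above, the split was 3 higher and 3 lower, against 4.39% and 40.1% of all genes. For D_DXZ against Unt the counts were also 7 higher (15.9% of all genes) and 1 lower (18%), and with equal FPKM sums 2 higher (3.66%) and 3 lower (39.6%). Of the 25044 genes, 13529 had a mean FPKM under 1. All 10 members passed a filter of an FPKM of at least 1 in 3 libraries. With this filter 8 members were higher in DOX than in Unt and 1 was lower, beside 4608 and 4471 of 12434 genes. For D_DXZ against Unt these counts were 8 and 1, beside 4079 and 4323. The comparisons with Unt use the same 3 Unt libraries.

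The DXZ and MgHCF groups were compared with DOX to see what each agent changes in the presence of doxorubicin. In D_MgHCF 1 of the 10 genes was higher than in DOX, against 31.4% of all genes, and 6 were lower, against 20.1%. With equal FPKM sums 5 were higher (53.2% of all genes) and 4 were lower (6.7%). Against D_DXZ the counts for D_MgHCF were 1 higher (29.4%) and 6 lower (19%), and with equal FPKM sums 4 higher (50.5%) and 4 lower (6.14%). Against Unt, 3 of the 10 genes were higher in D_MgHCF (24.3% of all genes) and 4 were lower (15.7%), and with quantile normalization 2 were higher (17%) and 4 were lower (18.5%). The filter of an FPKM of at least 1 in 3 libraries left 3 higher and 4 lower against Unt, beside 3064 and 3714 of 12434 genes. Against DOX it left 1 and 6, beside 4462 and 4877, and against D_DXZ 1 and 6, beside 4071 and 4673. In D_DXZ against DOX 0 of the 10 genes were called by limma, as for 0% of all genes in either direction. At an unadjusted p under 0.05, 1 member was called, Dnajb1, beside 2388 of all 25044 genes. At the adjusted threshold voom on the recovered reads called 0 of the 10 genes.

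**Figure D2:**
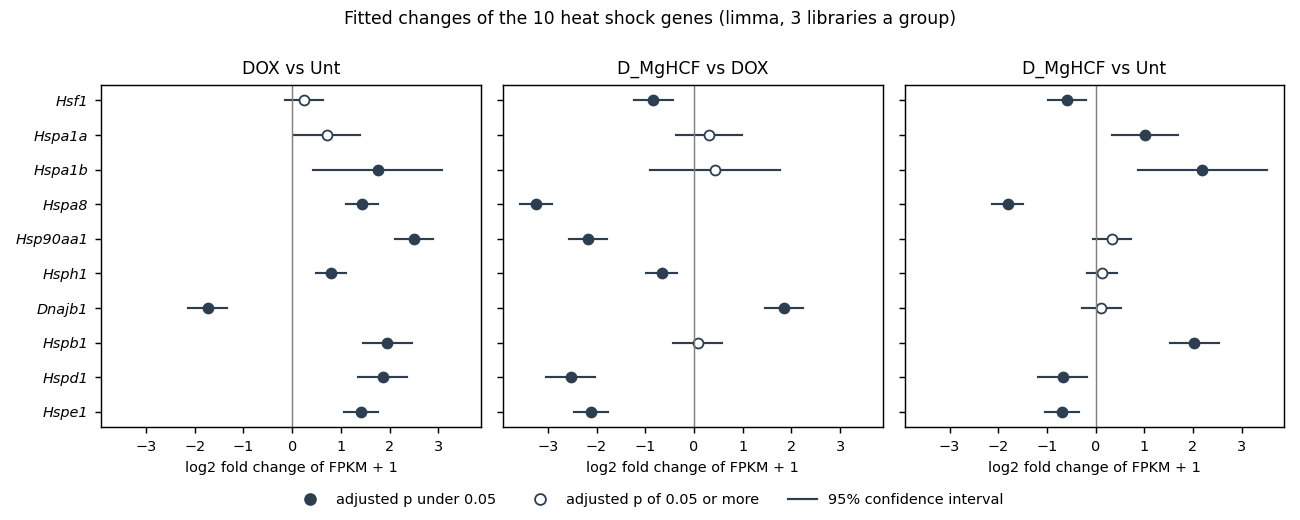
Fitted log2 fold change of FPKM + 1 (x axis) of the 10 genes (y axis) in 3 comparisons, from limma with 3 libraries a group, with filled points for an adjusted p under 0.05 and lines for the 95% confidence interval. Dnajb1 is the only one of the 10 below 0 in DOX against Unt, and Hspa8 has the lowest value in both panels with D_MgHCF.

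Hsf1 encodes the heat shock factor itself (chr15:76477422-76501913, plus strand). Its FPKM were 7.23, 7.81 and 8.05 in Unt and 8.45, 10.0 and 9.46 in DOX, with 8.22, 6.88 and 8.78 in D_DXZ and 3.70, 4.18 and 6.94 in D_MgHCF. The DOX libraries lay just above those of Unt without overlap, and the D_MgHCF libraries lay below those of Unt and DOX. The difference between DOX and Unt did not pass the test (log2 fold change 0.24, SE 0.18, adjusted p = 0.361), and it turned to -0.99 with equal FPKM sums and -0.68 with voom over summed reads, both called lower. In D_MgHCF Hsf1 was lower than in Unt by -0.59 (SE 0.18, adjusted p = 0.0241) and lower than in DOX by -0.83 (SE 0.18, adjusted p = 0.00281). The direction against DOX depended on the scaling, with 0.23 for equal FPKM sums and 0.01 for voom over summed reads. That against Unt stayed between -0.75 and -0.56 under the 5 scalings, and its call was lost without Unt replicate 2 or 3 or without D_MgHCF replicate 1 or 2 (adjusted p from 0.0671 to 0.0829). The call was also lost with no filter (adjusted p = 0.0639) and in a fit of the 2 groups (adjusted p = 0.0955).

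Hspa1a and Hspa1b encode the stress-inducible HSP70. They are single-exon genes on chromosome 17 (chr17:34969190-34972156 and chr17:34956436-34959238, both minus strand), and their transcripts are 99.2% identical over 2201 aligned bases, so the division of reads between them is uncertain. Hspa1a also overlaps Gm20481 on the other strand. The FPKM of Hspa1b were 3.37, 3.08 and 2.80 in Unt, 11.2, 14.5 and 12.8 in DOX, 12.7, 16.4 and 16.3 in D_DXZ and 41.5, 28.3 and 4.20 in D_MgHCF. All libraries with doxorubicin were above those of Unt, and D_MgHCF replicate 3 was near the Unt level while the other D_MgHCF libraries were above every other library. The FPKM of Hspa1a were 0.201, 0.281 and 0.248 in Unt, 0.888, 1.26 and 0.961 in DOX, 0.710, 1.29 and 1.24 in D_DXZ and 2.89, 1.91 and 0.412 in D_MgHCF. These values rest on 15 to 20 reads in Unt and on 30 to 180 in D_MgHCF, and they follow the same order of libraries in D_MgHCF as Hspa1b. The share of Hspa1a in the summed FPKM of the pair was 5.28% to 8.93% in all 12 libraries. The sum lay between 3.05 and 3.58 in Unt, between 12.1 and 15.7 in DOX, between 13.4 and 17.7 in D_DXZ and between 4.61 and 44.3 in D_MgHCF.

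Hspa1b rose in DOX by 1.75 on the log2 scale (SE 0.60, adjusted p = 0.0396), in D_DXZ by 1.98 (SE 0.60, adjusted p = 0.0257) and in D_MgHCF by 2.19 (SE 0.60, adjusted p = 0.0157), each against Unt. The SE is pooled over all groups, D_MgHCF replicate 3 included. The DOX call was lost in every fit without an Unt, DOX or D_DXZ library (adjusted p from 0.0538 to 0.104) and had an adjusted p of 1.63e-05 without D_MgHCF replicate 3. The D_DXZ call was lost without any 1 of the Unt libraries or D_DXZ replicate 2 or 3 (adjusted p from 0.0592 to 0.0734), and the D_MgHCF call without D_MgHCF replicate 1 or 2 (adjusted p of 0.0536 and 0.0629). With no filter these calls were lost in DOX (adjusted p = 0.128), D_DXZ (adjusted p = 0.0882) and D_MgHCF (adjusted p = 0.0551). The D_MgHCF call was also lost in a fit of the 2 groups (adjusted p = 0.0894). The rise in DOX was not called with equal FPKM sums (0.60), quantile normalization (1.88) or voom over summed reads (1.10), that in D_DXZ was not called with equal FPKM sums (0.97) or voom over summed reads (1.52), and the call against Unt in D_MgHCF held under all 5 scalings (2.15 to 2.64). Hspa1b did not pass the test between D_MgHCF and DOX (0.44, SE 0.60, adjusted p = 0.568), but with equal FPKM sums it was called higher (1.56, adjusted p = 0.0335). Without D_MgHCF replicate 3 that change was 1.36 (adjusted p = 0.000113) and the change against D_DXZ was 1.14 (adjusted p = 0.000382), from 0.22 with it, and these were the lowest adjusted p among 22 alternatives, which reached 1 for both. Hspa1a rose in D_MgHCF against Unt by 1.02 (SE 0.30, adjusted p = 0.0235), a call lost without any 1 of the Unt libraries or D_MgHCF replicate 1 or 2 (adjusted p from 0.058 to 0.0781) and with quantile normalization (0.79). The Hspa1a call was also lost with no filter (adjusted p = 0.0679) and in a fit of the 2 groups (adjusted p = 0.0972). In DOX its change of 0.71 did not pass the test (SE 0.30, adjusted p = 0.0989), although the libraries were apart. The pseudocount of 1 makes this value smaller, and with a pseudocount of 0.1 it was 1.72 and called (adjusted p = 0.0264, with 0.0016 to 0.631 over 21 alternatives). It was also called with quantile normalization (0.84), with voom over median-ratio factors (2.06), and without D_MgHCF replicate 1 (adjusted p = 0.0419) or 3 (adjusted p = 0.00381).

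Hspa8 encodes the constitutive HSP70, HSC70, which folds new proteins and takes part in clathrin uncoating and chaperone-mediated autophagy (chr9:40800984-40810087, plus strand). Its FPKM were 229, 241 and 254 in Unt, 542, 705 and 730 in DOX, 488, 540 and 607 in D_DXZ and 72.0, 61.6 and 71.1 in D_MgHCF. The D_MgHCF libraries were below all Unt libraries, and the DOX and D_DXZ libraries were above them and overlapped each other. Hspa8 fell in D_MgHCF by 1.81 on the log2 scale against Unt (SE 0.15, adjusted p = 2.75e-05) and by 3.24 against DOX (SE 0.15, adjusted p = 2.13e-06). Both falls were called under all 5 scalings, at -2.13 to -1.81 against Unt and -3.26 to -1.76 against DOX. The median of the 625 genes with a mean FPKM of at least 100 was 0.13 against Unt and -1.65 against DOX. The rise in DOX against Unt, by 1.43 (SE 0.15, adjusted p = 3.24e-05), depended on the scaling. It was 0.07 with equal FPKM sums, not called, 0.49 with voom over summed reads, called, and -0.38 with quantile normalization, where the gene was called lower. Hspa8 holds 3 small nucleolar RNA genes, and 10 other genes had near-identical stretches, of which those with a value did not exceed 4.50 FPKM.

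Hsp90aa1 encodes the inducible cytosolic HSP90, which matures kinases and hormone receptors and helps to hold HSF1 inactive (chr12:110690605-110702728, minus strand). Its FPKM were 129, 120 and 92.6 in Unt, 566, 681 and 703 in DOX, 483, 587 and 649 in D_DXZ and 144, 160 and 125 in D_MgHCF. The DOX and D_DXZ libraries were well above the others, and the D_MgHCF libraries overlapped those of Unt. Hsp90aa1 rose in DOX by 2.51 on the log2 scale (SE 0.17, adjusted p = 1.09e-05), the highest value of the 10 genes, although not with quantile normalization (0.79, compared with 1.89 for Hspb1), and in D_DXZ by 2.32 (SE 0.17, adjusted p = 5.59e-05). It was called higher in DOX under all 5 scalings (0.79 to 2.52). In D_MgHCF it was lower than in DOX by -2.18 (SE 0.17, adjusted p = 7.95e-06), also under all 5 scalings (-2.18 to -0.59). Against Unt the change in D_MgHCF was 0.33 and did not pass the test (95% confidence interval -0.06 to 0.72, adjusted p = 0.154), whereas voom over summed reads called it higher (0.36, adjusted p = 0.0441, where the 5 scalings ranged up to 0.397). The transcript most like it, of the gene Gm12346 (99.5% identity), reached 23.9 FPKM, so part of the reads could belong to either gene.

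Hsph1 encodes HSP110, a nucleotide exchange factor of HSP70 (chr5:149614287-149636376, minus strand). Its FPKM were 10.7, 10.6 and 10.9 in Unt, 17.2, 20.5 and 20.9 in DOX, 17.5, 16.5 and 21.3 in D_DXZ and 12.2, 14.3 and 9.61 in D_MgHCF. The DOX and D_DXZ libraries were above those of Unt and D_MgHCF, which overlapped each other. Hsph1 rose in DOX by 0.80 on the log2 scale (SE 0.14, adjusted p = 0.000968) and was lower in D_MgHCF than in DOX by -0.66 (SE 0.14, adjusted p = 0.00275). Both directions turned with equal FPKM sums, to -0.48 and 0.48, each called, and with voom over summed reads, to -0.10 and 0.26, neither called. With quantile normalization the change against DOX was -0.36 and its call was lost (adjusted p = 0.0981). With D_MgHCF against Unt the change was 0.13 (95% confidence interval -0.18 to 0.45, adjusted p = 0.484).

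Dnajb1 encodes the J-domain protein HSP40, which activates HSP70 and in many cells is induced by HSF1 along with it (chr8:83608193-83612653, plus strand). Its FPKM were 18.7, 16.5 and 18.3 in Unt, 5.76, 4.91 and 3.48 in DOX, 7.50, 6.17 and 5.66 in D_DXZ and 15.4, 22.5 and 21.0 in D_MgHCF. The DOX and D_DXZ libraries were far below the others, at 129 to 388 reads compared with 1039 to 1836 in Unt and D_MgHCF. Dnajb1 fell in DOX by 1.74 on the log2 scale (SE 0.18, adjusted p = 3.11e-05) and in D_DXZ by 1.34 (SE 0.18, adjusted p = 0.000252). It was higher in D_MgHCF than in DOX by 1.86 (SE 0.18, adjusted p = 1.85e-05) and than in D_DXZ by 1.46 (SE 0.18, adjusted p = 9.05e-05). The fall in DOX was called under all 5 scalings, at -2.95 to -1.74, and so was the rise in D_MgHCF against DOX, at 1.86 to 3.03. Against Unt the D_MgHCF libraries overlapped, and the change of 0.12 did not pass the test (95% confidence interval -0.27 to 0.51, adjusted p = 0.629). Between D_DXZ and DOX the libraries overlapped, and the change of 0.39 (SE 0.18) had an unadjusted p of 0.0492 and an adjusted p of 0.523. No near-identical copy of Dnajb1, Hsph1 or Hsf1 was found among the transcripts.

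Hspb1 encodes HSP27, a small heat shock protein that holds unfolded proteins and stabilizes actin (chr5:135887919-135889563, plus strand). Its FPKM were 5.90, 4.82 and 5.60 in Unt, 24.3, 21.9 and 25.2 in DOX, 12.4, 23.7 and 22.3 in D_DXZ and 21.7, 22.3 and 32.8 in D_MgHCF. All 9 libraries with doxorubicin were above those of Unt, and D_DXZ replicate 1 was the lowest of them. Hspb1 rose against Unt in DOX by 1.95 on the log2 scale (SE 0.23, adjusted p = 6.57e-05), in D_DXZ by 1.62 (SE 0.23, adjusted p = 0.000342) and in D_MgHCF by 2.03 (SE 0.23, adjusted p = 0.000131). The rises in DOX (0.71 to 2.13) and D_MgHCF (1.96 to 2.58) were called under all 5 scalings. That in D_DXZ was not called with equal FPKM sums (0.55). Between D_MgHCF and DOX the change was 0.08 (95% confidence interval -0.42 to 0.58, adjusted p = 0.795), and under equal FPKM sums, quantile normalization and voom over summed reads it was 1.25, 0.70 and 1.05, each called higher.

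Hspd1 and Hspe1 encode the mitochondrial chaperonin HSP60 and its lid, HSP10. The genes lie head to head on chromosome 1 (chr1:55077835-55088243, minus strand, and chr1:55088132-55091307, plus strand) and overlap by 112 bases, and reads from the overlap cannot be told apart without strand. The FPKM of Hspd1 were 203, 213 and 199 in Unt, 620, 795 and 834 in DOX, 599, 670 and 770 in D_DXZ and 169, 138 and 89.1 in D_MgHCF. Those of Hspe1 were 95.5, 99.2 and 101 in Unt, 223, 280 and 297 in DOX, 215, 219 and 236 in D_DXZ and 71.5, 65.6 and 47.2 in D_MgHCF. For both genes the D_MgHCF libraries were below every Unt library, with replicate 3 the lowest, and the DOX and D_DXZ libraries were above. Hspd1 fell in D_MgHCF against DOX by 2.53 on the log2 scale (SE 0.22, adjusted p = 1.29e-05) and Hspe1 by 2.11 (SE 0.16, adjusted p = 5.82e-06). Both falls were called under all 5 scalings, from -2.54 to -1.02 for Hspd1 and from -2.13 to -0.76 for Hspe1.

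Against Unt, Hspe1 was lower in D_MgHCF by -0.69 (SE 0.16, adjusted p = 0.00653) and Hspd1 by -0.68 (SE 0.22, adjusted p = 0.036). Both were lower under all 5 scalings, but the call of Hspd1 was lost in fits without any 1 of Unt replicates 1, 2 and 3, DOX replicate 2, D_DXZ replicate 2 or D_MgHCF replicates 2 and 3 (adjusted p from 0.0505 to 0.0971). The Hspd1 call was also lost with no filter (adjusted p = 0.0826), with a replicate block (adjusted p = 0.0624) and in a fit of the 2 groups (adjusted p = 0.105). The rise of Hspd1 in DOX was 1.86 (SE 0.22, adjusted p = 8.51e-05) and that of Hspe1 was 1.42 (SE 0.16, adjusted p = 5.17e-05). With quantile normalization these were 0.17 and -0.16, neither called, and with equal FPKM sums 0.49, called, and 0.06, not called. The pseudogene Hspd1-ps3, 98.95% identical to Hspd1 over 1722 bases, reached 43.0 FPKM.

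**Figure D3:**
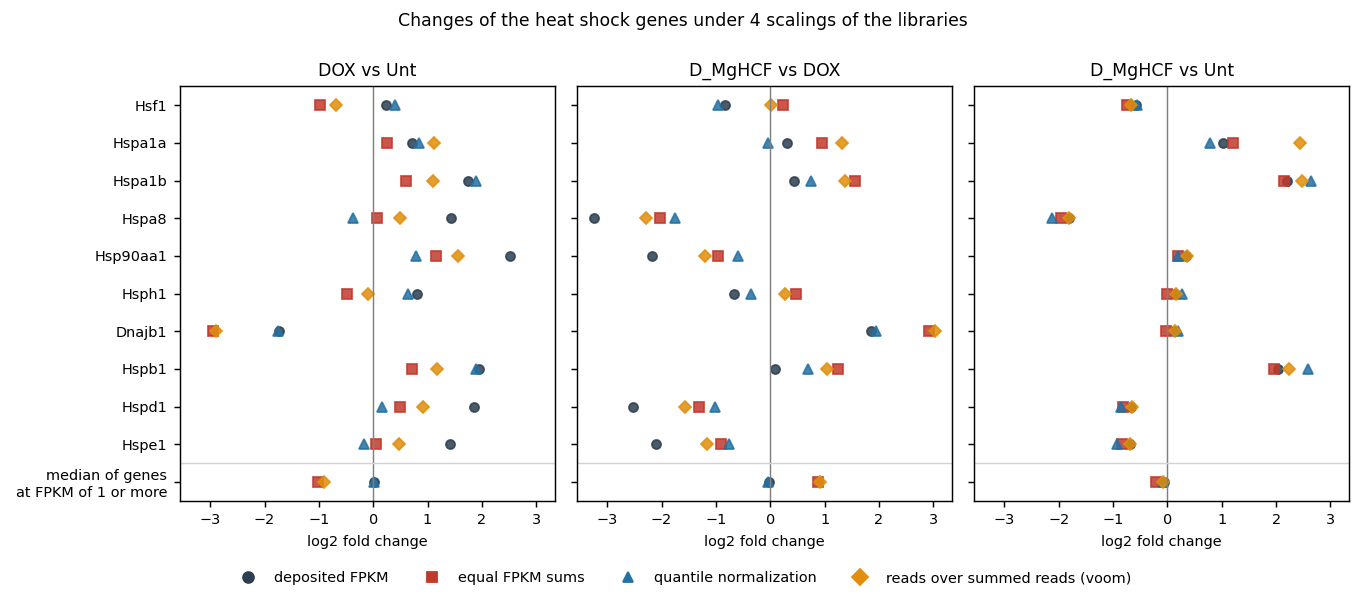
Log2 fold change (x axis) of the 10 genes, and of the median gene at an FPKM of 1 or more in at least 3 libraries, in 3 comparisons under 4 scalings of the libraries, each with its own marker. In DOX against Unt the markers of Dnajb1 all lie below -1.7 and those of Hsp90aa1 all above 0.7, whereas those of Hspa8, Hsph1, Hsf1 and Hspe1 lie on both sides of 0. In D_MgHCF against Unt the scalings lie close together for most genes.

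Ratios between members within a library do not depend on a scaling factor of that library. They are given as a description, since they were chosen after the values were seen. Per 100 FPKM of Hspa8, Dnajb1 stood between 6.82 and 8.18 FPKM in Unt, between 0.477 and 1.06 in DOX, between 0.932 and 1.54 in D_DXZ and between 21.4 and 36.5 in D_MgHCF. The transcript of the J-domain protein was thus low relative to that of HSC70 in every DOX and D_DXZ library and high in every D_MgHCF library. Per 100 FPKM of Hspa8, Hspa1b stood between 1.10 and 1.47 in Unt, between 1.75 and 2.07 in DOX, between 2.61 and 3.04 in D_DXZ and at 57.6, 45.9 and 5.91 in D_MgHCF. This ratio was apart between all 4 groups. Per 100 FPKM of Hspd1, Hspb1 stood between 2.27 and 2.91 in Unt, between 2.76 and 3.92 in DOX, between 2.08 and 3.53 in D_DXZ and between 12.9 and 36.9 in D_MgHCF, and only D_MgHCF was apart from the rest. The ratio of Hspd1 to Hspe1 lay between 1.97 and 2.14 in Unt, between 2.78 and 2.84 in DOX, between 2.79 and 3.26 in D_DXZ and between 1.89 and 2.37 in D_MgHCF, so the 2 partners of the chaperonin did not keep 1 ratio. Per 100 FPKM of Hsp90ab1, the constitutive HSP90, Hsp90aa1 stood between 11.3 and 18.6 in Unt, between 21.8 and 22.5 in DOX, between 22.5 and 22.9 in D_DXZ and between 14.9 and 24.5 in D_MgHCF.

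**Figure D4:**
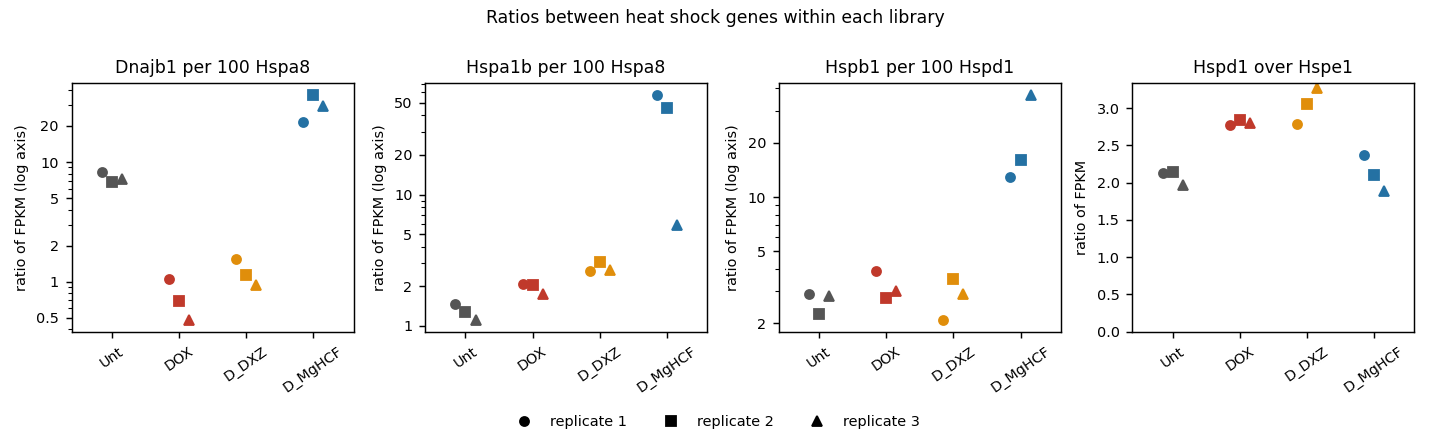
Ratio of FPKM (y axis, log axis in 3 panels) between pairs of heat shock genes in each of the 12 libraries, with 1 marker per library shaped by replicate number. The ratio of Dnajb1 to Hspa8 is below that of Unt in all DOX and D_DXZ libraries and above it in all D_MgHCF libraries, and that of Hspa1b to Hspa8 in D_MgHCF replicate 3 lies well below the other D_MgHCF libraries.

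The comparison of D_DXZ with DOX asks what DXZ changes in the presence of doxorubicin. The libraries of D_DXZ and DOX overlapped for all 10 genes. The log2 fold changes ranged from -0.33 (Hspb1, 95% confidence interval -0.83 to 0.18) to 0.39 (Dnajb1, 0.00 to 0.78). The interval for Hspa8 was -0.59 to 0.06 and that for Hsp90aa1 -0.58 to 0.20, and that for Hspa1b, -1.11 to 1.55, was the widest. After adjustment no change could be told from 0 with 3 libraries a group, which does not show that the groups were equal. Over all 25044 genes 2388 had an unadjusted p under 0.05 in this comparison.

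The wider chaperone network was covered by 7 lists with 72 other genes, of which 71 were tested and Hspb3, with at most 1 read in any library, was not. In DOX against Unt 38 were higher and 10 were lower, beside 18.6% and 19.9% of all genes. With equal FPKM sums this turned to 12 higher and 40 lower, beside 4.39% and 40.1%, so the counts of each list hold for the deposited scaling. With the filter of an FPKM of at least 1 in 3 libraries, 39 of 65 were higher and 12 lower, beside 4608 and 4471 of 12434 genes. The subunits of TRiC, which folds actin and tubulin, and of prefoldin, which delivers them, held 13 of 14 genes higher and 1 lower, with a median log2 fold change of 1.43. Over all genes with a mean FPKM of at least 100 the median was 1.80, with 97.3% above 0. For genes from 10 to 100 FPKM these values were 0.75 and 73%. The HSP70 and HSP90 co-chaperones held 10 of 16 higher and 3 lower (median 1.05). Among the other HSP90, HSP70 and HSP110 genes 4 of 9 were higher and 0 were lower. In the list of small heat shock proteins, which holds Hspb11 by its symbol only, 3 of 6 were higher and 0 were lower. The J-domain proteins held 2 of 8 higher and 1 lower, and the mitochondrial chaperones and proteases 4 of 11 higher and 3 lower. The list of other heat shock factors and HSF1 targets, to which Hsbp1 was added, held 2 of 7 higher and 2 lower. These lists were not chosen independently of these data.

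The largest rises among these genes in DOX, by the rule for named genes, were those of Cryab, which encodes the small heat shock protein αB-crystallin, from a mean FPKM of 26.6 to 152.2 (log2 fold change 2.46, SE 0.17, adjusted p = 1.09e-05), of Hspb6 (1.97) and of Hsp90ab1 (1.96). Hsp90ab1 had a mean of 757.4 FPKM in Unt and 2950 in DOX. Among the largest falls were those of Bag5, an HSP70 nucleotide exchange factor, from 13.3 to 1.80 (-2.36, SE 0.22, adjusted p = 1.91e-05), and of Clpx, which unfolds proteins for the mitochondrial protease ClpP (-1.84).

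In D_MgHCF against DOX 14 of the 71 genes were higher and 40 were lower, beside 31.4% and 20.1% of all genes, and with equal FPKM sums 35 were higher and 21 were lower, beside 53.2% and 6.7%. With the filter of an FPKM of at least 1 in 3 libraries, 14 of 65 were higher and 40 lower, beside 4462 and 4877 of 12434 genes. TRiC and prefoldin held 13 of 14 lower and 1 higher (median -1.82), and the co-chaperones 11 of 16 lower and 3 higher (median -1.14). Over all genes with a mean FPKM of at least 100 the median was -1.65, with 2.72% above 0. For genes from 10 to 100 FPKM these values were -0.85 and 26.2%. Among the 71 genes the largest falls were those of Hspa4, an HSP110-type exchange factor (-2.94, SE 0.39, adjusted p = 0.000128), of Hspa9, the mitochondrial HSP70 (-2.51, SE 0.17, adjusted p = 4.04e-06), and of Tcp1, a TRiC subunit (-2.32). Among the largest rises were those of Clpx (1.63) and Bag5 (1.49). This comparison and that of DOX against Unt share the DOX libraries. Against Unt, 17 of the 71 were higher in D_MgHCF, a share close to the 24.3% of all genes, and 20 were lower, beside 15.7% of all genes. With quantile normalization 15 were higher (17% of all genes) and 25 were lower (18.5%). With the filter of an FPKM of at least 1 in 3 libraries, 15 of 65 were higher and 20 lower, beside 3064 and 3714 of 12434 genes. Hspa12a (1.14), Cryab (1.01) and Hspb6 (0.96) rose most, and Dnaja3, a mitochondrial J-domain protein, fell from 25.5 to 6.51 FPKM (-1.88, SE 0.23, adjusted p = 0.00022), followed by Cct4 (-1.75) and Hspa4 (-1.59). In D_DXZ against Unt 33 were higher and 11 were lower, beside 15.9% and 18% of all genes, and with equal FPKM sums 8 were higher and 37 were lower, beside 3.66% and 39.6%. In D_MgHCF against D_DXZ 16 were higher and 37 were lower, beside 29.4% and 19% of all genes, and with equal FPKM sums 31 were higher and 17 were lower, beside 50.5% and 6.14%. In D_DXZ against DOX limma called 0 of the 71, with 12 at an unadjusted p under 0.05, beside 2388 of all 25044 genes.

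**Figure D5:**
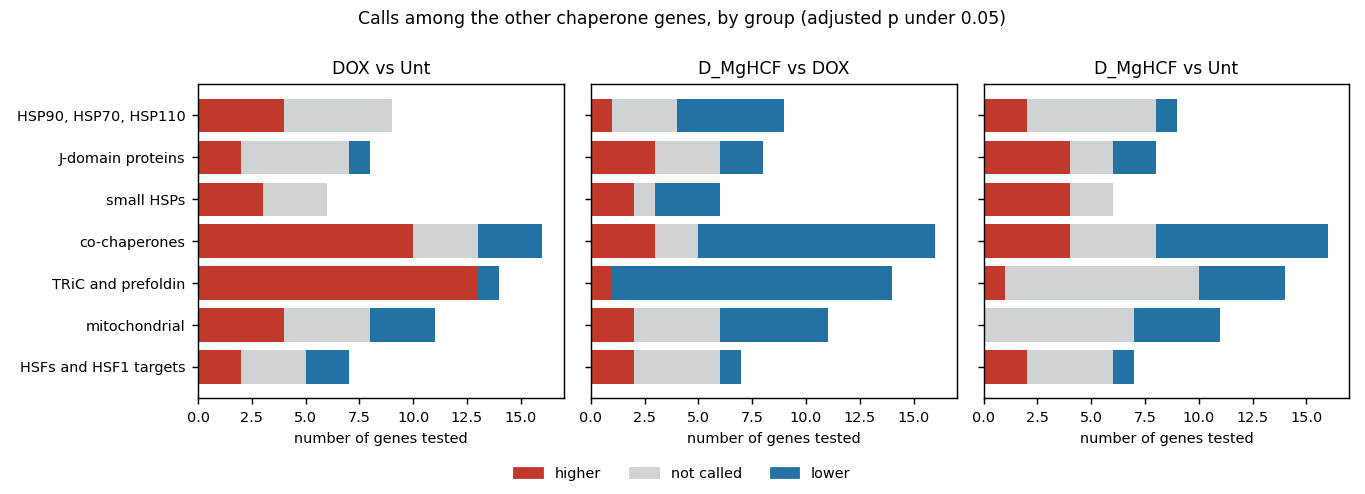
Number of the 71 other chaperone genes tested (x axis) that were higher, lower or not called at an adjusted p under 0.05, for each of 7 lists (y axis) and 3 comparisons. TRiC and prefoldin have 13 of 14 genes higher in DOX against Unt and 13 of 14 lower in D_MgHCF against DOX. Under this scaling most of all genes with a high level moved in the same directions.

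Over the 12 libraries the genes most like 3 of the members were sought among 11517 genes with a mean FPKM of at least 1, by Pearson's r of log2(FPKM + 1), as a description of points that share 4 groups and their scaling. The closest to Hsf1 were Psmd12 (0.992), Mtap (0.986) and Memo1 (0.978), while the r of Hsf1 with Hspa1b was -0.48 and with Dnajb1 -0.62. The closest to Hspa1b were Nxf1 (0.985), Polr3g (0.982) and Ager (0.981), and Hspa1a ranked eighth (0.97). The closest to Hspd1 were Mcm4 (0.998), Mrpl42 (0.998) and Hnrnpa2b1 (0.997), with Hspe1 in rank 28 (0.995). The r of Dnajb1 with Hsp90aa1 was -0.96 and with Hspd1 -0.96.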

How the data were processed

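Poly(A) RNA of 12 libraries was sequenced as 150 bp paired-end reads from an unstranded kit, and whether the counting used strand is not given in the sources used here. Per the submitters' processing notes HISAT2 2.0.5 and GRCm38 (mm10) were used, and the counting program and annotation release are not given in the sources used here. The authors deposited FPKM per gene and library, which contain a median-ratio library scaling. A total of 0 sample columns were left unused. In this work limma 3.58.1 in R 4.3.3 was fitted to log2(FPKM + 1) of the 25044 genes that were above 0 in 3 or more libraries, with 1 fit over 4 groups, a trend prior and no covariate, two-sided, with Benjamini-Hochberg adjustment over all genes tested and calls at an adjusted p under 0.05. A fold change on this scale understates that of low genes. The paper names a negative binomial test, which needs counts. The counts behind the FPKM were recovered as whole reads and tested with voom as an alternative.

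Nothing in the labels says that replicates came from separate cultures, so p-values measure the spread between these libraries, which may be technical. The 10 members were named in all comparisons, and of the other chaperone genes the 3 largest rises and falls among called genes whose higher group had a mean FPKM of 1 or more. One gene that this rule names is not reported here. For 3 members the 3 genes with the highest correlation were named. The members and lists were chosen with earlier results of these data known. In simulated data for DOX against Unt, limma recovered 89 of 100 genes changed by a log2 value of 2 and 62 of 100 changed by 1, among 25044 genes. The changed genes had a mean log2(FPKM + 1) of at least 1 in Unt, and each gene had 1 spread in all groups. Hspa1a lies below that level, and fewer genes were changed than were called in the data. The recovery therefore does not give the power for the members. Copies were searched with BLAST 2.17.0 in GENCODE M21 transcripts (at least 95% identity over 150 bases), whose coordinates of the 10 members equal those deposited. Promoters are from RefSeq (GRCm38.p6). Alternatives were equal FPKM sums, quantile normalization, voom with summed reads or median-ratio factors, a pseudocount of 0.1, an FPKM filter of 1, no filter, a replicate block, fits of the 2 groups, a 2-fold minimum, unadjusted p, the sum of Hspa1a and Hspa1b, and each library left out.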

Additional observations from a re-analysis of the deposited data

How the results depend on the processing

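In D_DXZ against Unt 8 of the 10 heat shock genes were called, and with equal FPKM sums 5, of which Hsp90aa1, Hspd1 and Dnajb1 were among the 8 in the same direction, Hsph1 was turned and Hsf1 was not among them. In D_MgHCF against Unt 7 were called, and no filter and a fit of the 2 groups called 3 each, a 2-fold minimum 4 and fits with 1 library left out 3 to 7 (4 without Unt replicate 2, without Unt replicate 3 or without D_MgHCF replicate 1, and 3 without D_MgHCF replicate 2). Calls over all genes in D_MgHCF against Unt also fell. From 6096 higher and 3941 lower of 25044 they became 4169 and 3230 of 54345 with no filter. In a fit of the 2 groups they became 3349 and 2869 of 25044. Of the other chaperone genes a 2-fold minimum left 29 of 44 calls in D_DXZ against Unt and 10 of 37 in D_MgHCF against Unt. At an unadjusted p, 1 member and 12 other chaperone genes were called in D_DXZ against DOX, compared with 0, beside 2388 of all 25044 genes. Leaving out libraries gave 7 to 9 members called in DOX against Unt, D_DXZ against Unt and D_MgHCF against DOX, 6 to 9 in D_MgHCF against D_DXZ and 0 in D_DXZ against DOX.

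Over the 10 genes and 6 comparisons, the direction of log2 fold changes turned in 35 of 594 values under other settings and in 12 of 720 with a library left out. With equal FPKM sums Hsf1 was -0.99 in DOX and -1.03 in D_DXZ against Unt, 0.23 and 0.28 in D_MgHCF against DOX and D_DXZ, Hspa8 -0.020 and Hspe1 -0.010 in D_DXZ against Unt, and Dnajb1 -0.022 in D_MgHCF against Unt. Hsph1 was -0.48, -0.40 and -0.0035 in DOX, D_DXZ and D_MgHCF against Unt, 0.087 in D_DXZ against DOX, and 0.48 and 0.39 in D_MgHCF against DOX and D_DXZ. Hspd1 was 0.039 in D_DXZ against DOX. With voom over summed reads Hsf1 was -0.68, -0.72, 0.0065 and 0.047 in the same 4 comparisons, Hsph1 -0.098 in DOX against Unt, 0.10 in D_DXZ against DOX, and 0.26 and 0.16 in D_MgHCF against DOX and D_DXZ, and in D_DXZ against DOX Hsp90aa1 was 0.0014 and Hspd1 0.052. With quantile normalization Hspa1a was -0.049 in D_DXZ against DOX, -0.051 and -0.0018 in D_MgHCF against DOX and D_DXZ, Hspa8 -0.38 in DOX and -0.38 in D_DXZ against Unt, Hspe1 -0.16 and -0.13 in the same comparisons, and in D_DXZ against DOX Hsp90aa1 was 0.049, Hsph1 0.050, Hspd1 0.052 and Hspe1 0.027.

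With a library left out, values that turned for at least 1 library ranged from -0.028 to 0.13 for Hsf1 in D_DXZ against Unt, from -0.054 to 0.16 for Hspa1a in D_DXZ against DOX, from -0.0034 to 0.73 for Hspa1a in D_MgHCF against DOX, from -0.024 to 0.71 in D_MgHCF against D_DXZ, from -0.16 to 1.36 for Hspa1b in D_MgHCF against DOX, from -0.38 to 1.14 in D_MgHCF against D_DXZ, and from -0.11 to 0.18 for Hspb1 in D_MgHCF against DOX. In the comparisons with D_MgHCF the highest values of Hspa1a and Hspa1b and the lowest of Hspb1 were those without D_MgHCF replicate 3. The cause of these shifts was not tested. The pseudocount, the FPKM filter, no filter and the 2-group fits turned no direction among these genes.

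Counts over all genes moved more with the scaling. In DOX against Unt 4649 genes higher and 4973 lower became 1099 and 10034 with equal FPKM sums and 2109 and 8787 with voom over summed reads, and in D_MgHCF against DOX 7863 and 5027 became 13331 and 1679, and 12826 and 2385. In D_MgHCF against Unt 6096 and 3941 became 3349 and 2869 in a fit of the 2 groups.

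A pairing of the samples by replicate number was not shown. The correlations of same-numbered deviations from the group means were -0.314 to 0.306 and not all above 0.1. Those between D_DXZ and DOX were 0.306, 0.033 and 0.22. With 3 libraries a group such correlations cannot exclude a pairing. With a replicate block 8 members were called in DOX against Unt, 8 in D_DXZ against Unt, 6 in D_MgHCF against Unt, 0 in D_DXZ against DOX and 7 each in D_MgHCF against DOX and D_DXZ, and the only call lost among the members was that of Hspd1 in D_MgHCF against Unt. With 3 libraries a group and 15 to 20 reads on Hspa1a in Unt, small changes of low genes could not be detected.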
